A study of Mus musculus with 8 samples.

Results

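The cytosolic ribosomal protein genes were followed as a group across 8 RNA-seq libraries of mouse nephron progenitors. Members were chosen by name alone, as table rows called Rpl or Rps with a number and at most a short suffix, together with Rplp0, Rplp1, Rplp2 and Rpsa. Rows marked as pseudogenes by the ending -ps were left out. The rule gave 85 of the 24539 gene symbols listed, of which 49 belong to the large subunit, 3 to its P stalk and 33 to the small subunit. Rpl3l, Rpl10l and Rpl39l could not be tested: Rpl10l and Rpl39l had no read in any library and Rpl3l had 2 reads in all, and these close relatives of Rpl3, Rpl10 and Rpl39 are known from muscle and testis. The remaining 82 members were among the 13459 genes with enough reads to test.

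The cells were GFP-positive mesenchymal nephron progenitors isolated from E18.5 kidneys by flow sorting. The 8 libraries fell into 4 groups of 2. Smo encodes Smoothened, the membrane protein that passes on the Hedgehog signal, and the series varied its dose. The groups were Smo c/c ; Six2GFPcre (SmoKO), Smo c/+ ; Six2GFPcre (SmoHet), Smo +/+ ; Six2GFPcre (SmoWT) and Rosa26 SmoM2/+ ; Smo +/+ ; Six2GFPcre (SmoM2), where c is a conditional allele and SmoM2 an activated form of Smo. Every group, SmoWT included, carries the Six2GFPcre transgene, which places GFP and Cre under the control of Six2, a transcription factor of nephron progenitors, so recombination was limited to cells that had expressed Six2.

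A ribosome has a small subunit, which reads the mRNA, and a large subunit, which joins the amino acids. Each holds a defined set of proteins, and their genes are for the most part transcribed together at high levels in growing cells. Their mRNAs typically begin with a run of pyrimidines (C or T), the 5′ terminal oligopyrimidine or TOP element, which the mTOR pathway and the RNA-binding protein Larp1 use to control how much of each mRNA is translated and stored. In the developing kidney, nephron progenitors divide and give rise to the epithelium of every nephron.

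A start sequence was matched for 64 of the 85 members in RefSeq (GRCm38.p6). The runs below are examples, since most of these members had a pyrimidine run of at least 8 bases near the annotated start. Rps3a1 and Rpl7l1, which come up in the comparisons, had shorter runs. Each line gives 30 bases around the longest run of C and T within 50 bases of the annotated start, on the coding strand from 5′ to 3′, with that run in capitals.
Rpl7a, chr2:26910788-26910817, + strand: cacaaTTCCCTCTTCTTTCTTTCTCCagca
Rps25, chr9:44407684-44407713, + strand: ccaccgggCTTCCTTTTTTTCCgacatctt
Rpl26, chr11:68901516-68901545, + strand: TCCTCTCCCCTTTCgctccgagactctcgc
Rpl36a, chrX:134585672-134585701, + strand: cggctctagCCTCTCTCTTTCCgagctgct
Rpl35a, chr16:33056468-33056497, + strand: cggggcttgCCTTCCTCTTTCCgccatctt
Rps18, chr17:33955648-33955677, - strand: gtcacttccgCTCTCTCTTCCacaggaggc
Rps27, chr3:90213632-90213661, - strand: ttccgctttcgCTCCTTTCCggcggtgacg
Rpl7l1, chr17:46782671-46782700, - strand: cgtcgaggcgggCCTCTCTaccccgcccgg
Rps3a1, chr3:86142623-86142652, - strand: acgtagacggcgCTCCCCgcccggctcgcg
In Rps18 and Rps27 the run begins 2 bases before the annotated start, so it spans it, and in Rpl7a it begins 14 bases before and also spans it. The runs of Rps25 and Rpl7l1 begin 22 and 32 bases upstream and end before the start. Those of Rpl35a, Rpl36a and Rps3a1 begin 24, 27 and 28 bases downstream. Runs were taken from anywhere in this window, so they need not be TOP elements. Rpl26 has its run 50 bases upstream of the annotated start, and the annotated start may differ from the one used in these cells.

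The longest run was at least 8 bases in 51 of the 64 members (79.7%), against 35.7% of the 27025 mouse genes with a start sequence. Its median length was 10 bases in members and 7 in all genes. Mitochondrial ribosomal protein genes, which encode the separate ribosome of mitochondria, reached 8 bases in 33.3% of 69 genes. The letters CTCTTTC on the coding strand were found between 250 bases before and 50 bases after the start in 18.8% of members and 3.91% of all genes. In the same window the letters CCGGAAG or their reverse complement CTTCCGG, a core of the binding site of ETS factors, occurred in 39.1% of members, 9.12% of all genes and 36.2% of mitochondrial ribosomal protein genes. The letters ATGGCGG or CCGCCAT, a core of the YY1 site, were held by 15.6% of members and 4.19% of all genes. A TATA box, searched as TATAAA or TTTATA, was held by 10.9% of members and 14.2% of all genes. These matches describe letters in a window, not occupied sites.

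The 8 libraries held between 4422305 and 10305398 listed read counts. Smo was at 11.1 and 13.1 CPM (reads of the gene scaled to a common library size) in SmoKO, at 14.4 and 23.9 CPM in SmoHet, at 363 and 375 CPM in SmoWT and at 605 and 629 CPM in SmoM2. SmoHet was therefore nearly as low as SmoKO, which goes against its label of a single conditional allele, and the libraries are called by their labels below. The library labels and Xist, the RNA of the inactive X chromosome, were not balanced: both SmoHet libraries had at least 9663 Xist reads, both SmoKO libraries had at most 2, and SmoWT and SmoM2 each had a library of either kind. Nephron progenitor genes such as Six2 and Cited1 were present in every library, but at uneven levels. Cited1 was at 506 and 372 CPM in SmoHet and 385 and 271 CPM in SmoKO. It was at 173 and 123 CPM in SmoWT and 107 and 85.4 CPM in SmoM2. Of 12 such genes, 6 passed the test described below as higher in SmoHet than in SmoWT, and 0 as lower. Of all genes, 13.1% rose and 12.2% fell. Markers of other kidney cells were uneven too. Of 6 immune genes, Ptprc was at or near 0 while Cd68, a lysosomal protein of macrophages also made elsewhere, was at 44.8 and 41.3 CPM in SmoHet, 20.5 and 27.8 CPM in SmoWT and 10.8 and 13.9 CPM in SmoKO. The other immune genes did not share the higher SmoHet level. Csf1r was at 2.01 and 1.02 CPM in SmoHet and 3.73 and 1.74 CPM in SmoWT. C1qa was at 1.07 and 2.55 CPM in SmoHet and 4.10 and 1.63 CPM in SmoWT, and Adgre1 and Lyz2 were under 1 CPM in every library. Ureteric bud genes summed to 21.8 to 63.1 CPM, mostly Hoxb7 and Wnt11, with Aqp2 at or near 0, and 6 endothelial genes to at most 4.87 CPM. Stroma genes summed to 190 to 709 CPM in SmoKO, 261 to 421 CPM in SmoHet, 342 to 515 CPM in SmoWT and 552 to 676 CPM in SmoM2. Among them Foxd1, a stromal transcription factor, was at 3.70 to 22.5 CPM in the SmoKO and SmoHet libraries and at 171 to 385 CPM in the others. Meis1, of the same list, went the other way. It was at 86.4 to 114 CPM in the SmoKO and SmoHet libraries and at 10.4 to 17.0 CPM in the others. The part of these cells, or of the uneven progenitor genes, in the results was not tested. The summed level of 12 immediate early and stress genes was 9814 and 9835 CPM in SmoHet, 5650 and 7413 CPM in SmoKO, 3758 and 4041 CPM in SmoWT and 4171 and 6120 CPM in SmoM2.

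Ribosomal protein genes took up a smaller part of the SmoHet libraries than of any other. Their share of the listed counts was 4.44% and 4.61% in SmoHet. It was 6.97% and 6.12% in SmoKO, 6.003% and 6.26% in SmoWT, and 6.23% and 6.76% in SmoM2. The 2 SmoHet libraries lay below the other 6, and the SmoKO, SmoWT and SmoM2 groups overlapped. Counting error was small beside these differences: the exact 95% binomial interval of the lowest share, in SmoHet replicate 1, ran from 4.42% to 4.45% and covers counting error only. The group means were 4.52% ± 0.119 (SD, n = 2) in SmoHet, 6.13% ± 0.181 (SD, n = 2) in SmoWT, 6.50% ± 0.371 (SD, n = 2) in SmoM2 and 6.54% ± 0.604 (SD, n = 2) in SmoKO. With 2 libraries in each group an exact two-sided permutation test of a single value cannot give a p below 0.333. The labels do not say that the libraries of a group came from separate animals, so p-values measure only the spread between these samples, which may be technical.

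**Figure D1:**
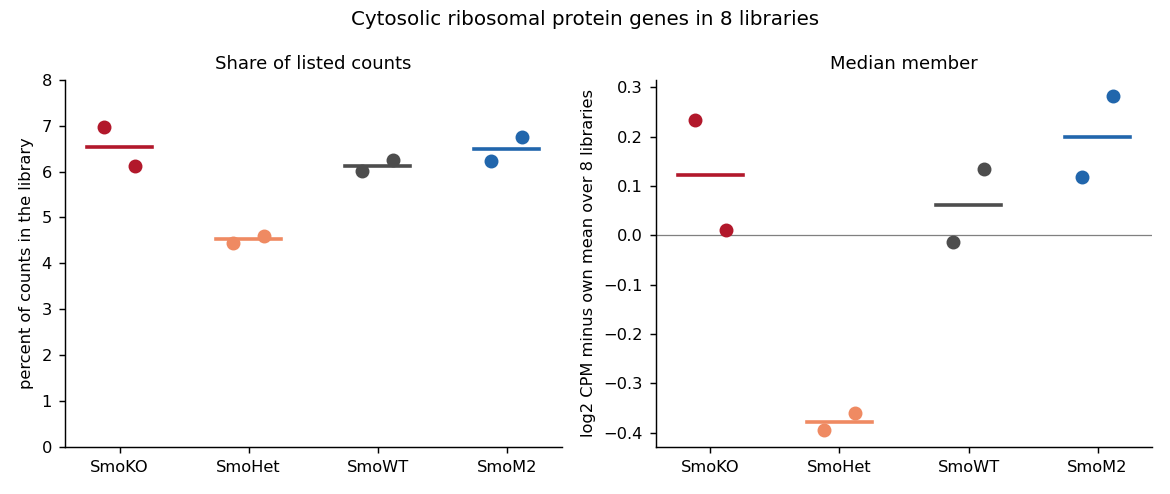
Left, the share of listed read counts (percent) that fell on the 85 ribosomal protein genes, and right, the median over 82 tested members of log2 CPM minus the gene's own mean over the 8 libraries. Each point is 1 library and each bar the mean of 2; the SmoHet points, at 4.44% and 4.61%, lie below all others.

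The shift was shared by most members. With each gene set against its own mean over the 8 libraries on the log2 CPM scale, the median member stood at -0.40 and -0.36 in the 2 SmoHet libraries, and 79 of 82 members were below their mean in each. In SmoKO the median was 0.23 in replicate 1, where 75 members were above their mean, and 0.01 in replicate 2, where 47 were. SmoWT gave -0.01 and 0.14, with 37 and 74 members above their mean. SmoM2 gave 0.12 and 0.28, with 73 and 78. In SmoWT and SmoM2 the higher median was in replicate 2, the library with Xist reads. Large and small subunit genes moved together: large subunit genes took up 2.30% and 2.41% of counts in SmoHet and 3.08% to 3.65% elsewhere, and small subunit genes 1.75% and 1.82% in SmoHet and 2.45% to 2.79% elsewhere. In bulk libraries a change in the RNA per cell and a change in the kinds of cells sorted cannot be told apart.

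**Figure D2:**
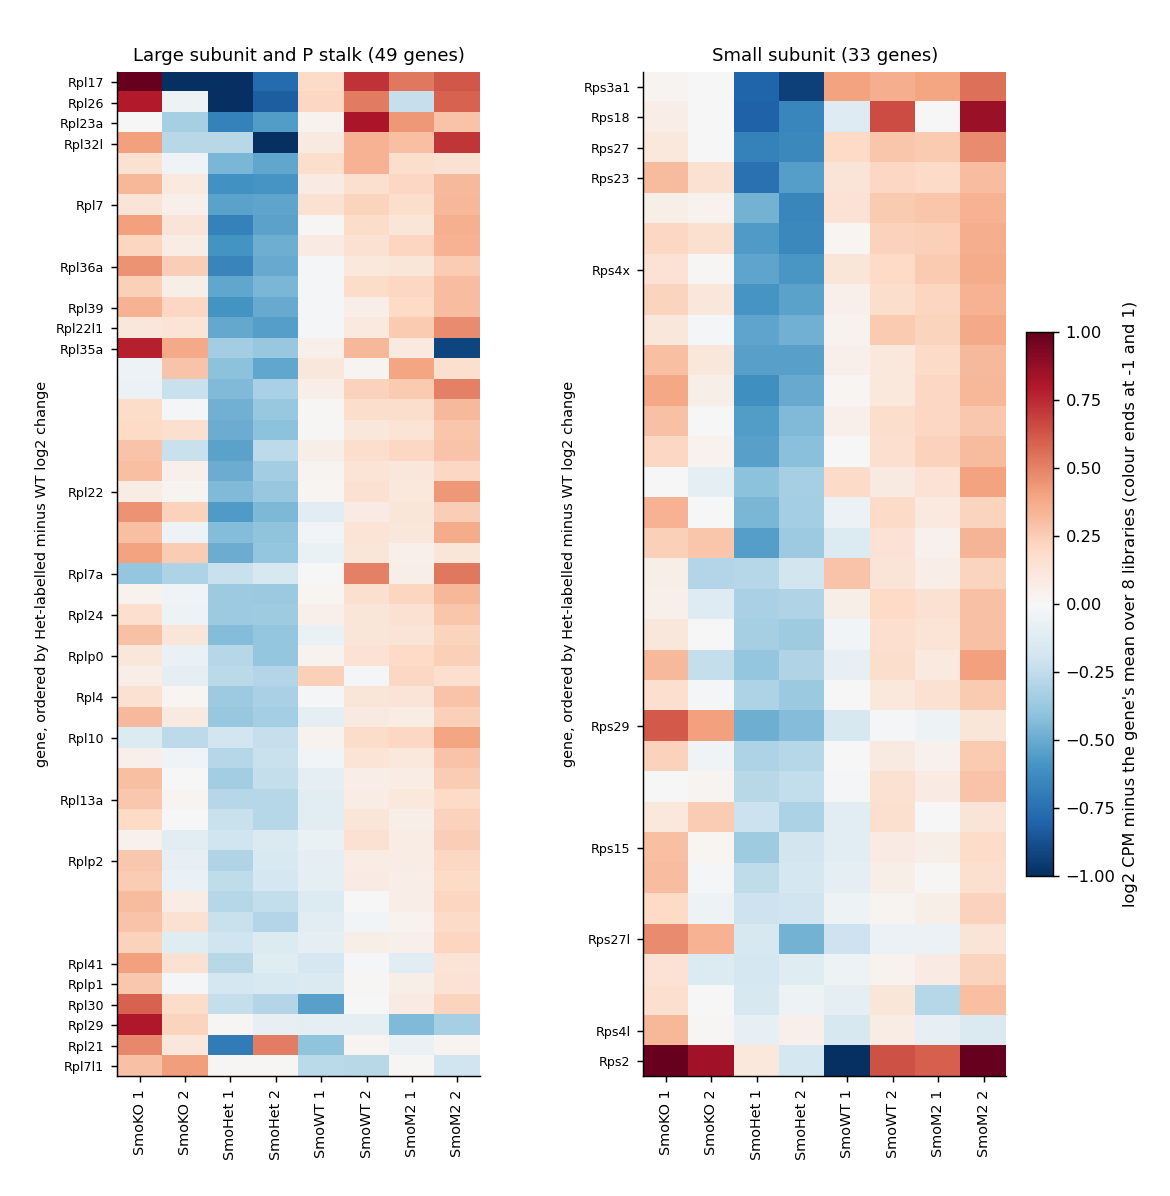
Log2 CPM of the 82 tested ribosomal protein genes (rows) minus each gene's mean over the 8 libraries (columns), split into large subunit with P stalk (49 genes) and small subunit (33 genes), with names beside some of the genes described in the text. Both SmoHet columns are blue for nearly all rows; single deep cells mark genes that left the group in 1 library, such as Rps2 in SmoWT 1.

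Levels per gene length, compared as the authors' RPKM, spanned a wide range among the members. In SmoWT the mean ran from 5.52 RPKM for Rpl17 to 3231 ± 76.5 RPKM (SD, n = 2) for Rpl41, with a median of 694 RPKM, and 74 of 82 members were at 100 RPKM or more. After Rpl41, which encodes a peptide much shorter than any other ribosomal protein, came Rplp1 of the stalk at 2138 RPKM, Rpl13a at 1970.4 RPKM and Rps15 at 1951 RPKM. The lowest, Rpl17, Rpl29 (6.02 RPKM), Rpl32l (10.2 RPKM) and Rpl21 (19.7 RPKM), encode or resemble ordinary subunit proteins. Sequence shared with other genes bears on such levels, since a read that matches several places can be dropped or counted more than once. Of 83 members with transcripts to compare, 22 of those tested had at least 50% of their 50-base stretches in common with other genes.

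The table shows how such reads can enter a member's count. Rpl26 and Gm15772, a row that shares 289 of its 50-base stretches, differed by at most 2 reads in any library, at 5750 reads each in SmoWT replicate 1. Rps27 and Rps27rt differed by at most 47 reads, at 6847 and 6806 reads in the same library. Rpl30 and Gm12191 differed by at most 120 reads, and Rpl34 and Rpl34-ps1 by at most 116. Whether the same reads were counted in both rows cannot be told apart from equal expression, so the values of Rpl26 and Rps27 may be those of the pair of rows. How reads with several matches were counted is not given in the sources used here. The library kit does not mark strand, and 19 of the 85 members overlap another gene, so reads of the overlapping stretch could belong to either.

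SmoHet was first compared with SmoWT, as labelled; Smo itself was nearly as low in these SmoHet libraries as in SmoKO. The ribosomal protein genes were lower in SmoHet. By edgeR's quasi-likelihood test with Benjamini-Hochberg adjustment over all 13459 genes, 47 of the 82 members fell, and no called member was higher. Of all genes tested, 12.2% fell and 13.1% rose. The median log2 change of members was -0.46, against -0.02 over all genes, and 77 of 82 were below 0. In 73 members both SmoHet libraries were below both SmoWT libraries, a pattern held by 34.1% of all genes, in 2 they were above (32.8% of all genes), and in 67 the 2 SmoHet libraries were the lowest of all 8, a pattern held by 12.6% of all genes. The count of members that fell was 16 without SmoHet replicate 1, 21 without SmoHet replicate 2 and 28 without SmoWT replicate 2, when 1 member, Rps2, rose; the median stayed between -0.53 and -0.40 when any library was left out. With a trend over gene length removed from each library, 57 members fell, when 12.6% of all genes fell by that rule, and the median was -0.50.

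Rps3a1, a small subunit protein at the side that faces the mRNA exit, fell with the smallest adjusted p among the 5 called members with the largest falls. It stood at 424 and 387 CPM in SmoHet, against 973 and 948 CPM in SmoWT, 750.2 and 739 CPM in SmoKO and 972 and 1079 CPM in SmoM2. The SmoHet libraries were lowest and the SmoKO libraries came next, with no overlap between these groups and the rest. Its log2 change from SmoWT to SmoHet was -1.24 (SE 0.12, adjusted p = 0.000108), and the call held without any single library. Rps27, a zinc finger protein of the small subunit, stood at 348 and 356 CPM in SmoHet, below the 558 to 771 CPM of the other 6 libraries. Its log2 change was -0.90 (SE 0.12, adjusted p = 0.000804), which also held without any single library.

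The 3 others of these 5 had uneven replicates in some groups. Rpl26, a large subunit protein also known as a binder of p53 mRNA, was at 232 and 263 CPM in SmoHet, at 536 and 666 CPM in SmoWT, at 804 and 448 CPM in SmoKO and at 396 and 699 CPM in SmoM2. SmoHet did not overlap any other group, but the libraries of SmoKO and of SmoM2 lay far apart from each other. The log2 change of Rpl26 from SmoWT to SmoHet was -1.28 (SE 0.28, adjusted p = 0.00824), and the adjusted p was 0.055 without SmoHet replicate 1. Rps18, a protein of the head of the small subunit, was at 307 and 343 CPM in SmoHet and at 493 and 844 CPM in SmoWT. Replicate 2 was also the higher in SmoM2, at 978 against 538 CPM, while SmoKO gave 564 and 539 CPM. The log2 change of Rps18 was -1.04 (SE 0.27, adjusted p = 0.0169), and the edgeR adjusted p was 0.091 without SmoHet replicate 1, 0.065 without SmoHet replicate 2 and 0.11 without SmoWT replicate 2, when the log2 change was -0.63. Rpl23a, which lines the exit of the large subunit's peptide tunnel, was at 64.8 and 70.5 CPM in SmoHet and at 106 and 183 CPM in SmoWT, with 103 and 82.3 CPM in SmoKO and 140.1 and 126 CPM in SmoM2, a log2 change of -1.09 (SE 0.22, adjusted p = 0.00501). Rps3a1, Rps18 and Rpl23a share 71%, 79% and 83% of their 50-base stretches with other genes.

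Members with little or no shared sequence were looked at separately. Of the 7 tested members with under 10% of stretches shared, 4 fell and the median log2 change was -0.50, and of the 22 with at least 50% shared, 16 fell with a median of -0.49. Rpl4, the member whose pattern across libraries was closest to the group's median, stood at 1541 and 1588 CPM in SmoHet, 1959 and 2158 CPM in SmoWT, 2212 and 2009 CPM in SmoKO and 2167 and 2419 CPM in SmoM2. The SmoHet libraries of Rpl4 were the lowest, by a log2 change of -0.40 (SE 0.12, edgeR adjusted p = 0.0374). Rpl4 was picked because it followed the group's median, so its low SmoHet level adds nothing to the result. It shares 16% of its stretches and is not among the 7 members above. Its call was lost when SmoHet replicate 1, SmoHet replicate 2 or SmoWT replicate 2 was left out.

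The fall was seen in both subunits. In SmoHet against SmoWT 26 of 46 tested large subunit genes fell, with a median of -0.47, and 20 of 33 small subunit genes, with a median of -0.44. Of the 3 stalk genes, whose acidic proteins recruit the translation factors, Rplp0 alone fell: it was at 2200.0 and 2046 CPM in SmoHet and at 2734 and 2957 CPM in SmoWT, a log2 change of -0.42 (SE 0.12, adjusted p = 0.0272). The Rplp0 call was lost without SmoHet replicate 1 (adjusted p = 0.086), SmoHet replicate 2 (0.18) or SmoWT replicate 2 (0.083). Rplp1 and Rplp2 had log2 changes of -0.10 and -0.21 that did not pass. Of the 4 members on the X chromosome, Rpl36a, Rpl39 and Rps4x fell and Rpl10 (-0.32) did not pass. The 49 tested members with a pyrimidine run of at least 8 bases had a median of -0.47 and the 12 with a shorter run a median of -0.44. Among members, the log2 change was weakly related to length (Spearman's rho = 0.02 over 82 genes), to the RPKM in SmoWT (0.22) and to the share of common 50-base stretches (-0.26 over 80 genes); these are descriptions across genes of the same libraries.

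The members are short, and log2 changes varied with gene length in some comparisons. Their median length was 714 bases (327 to 5134), against 3016 bases for all genes tested. In SmoKO against SmoWT the median log2 change of other genes fell steadily with length, from 0.48 in genes of up to 600 bases to -0.31 in genes over 5000 bases. Members did not follow it: in the same classes their medians were 0.11 (30 genes) and 0.05 (1 gene), and they lay under the other genes in each class up to 3000 bases. In SmoHet against SmoWT length mattered little to other genes, whose medians lay between -0.14 and 0.06, and members were lower in every class, with medians from -0.73 to -0.32. The libraries were size-selected on a gel, and SmoKO had the fewest reads; the part of either in the length trend was not tested.

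**Figure D3:**
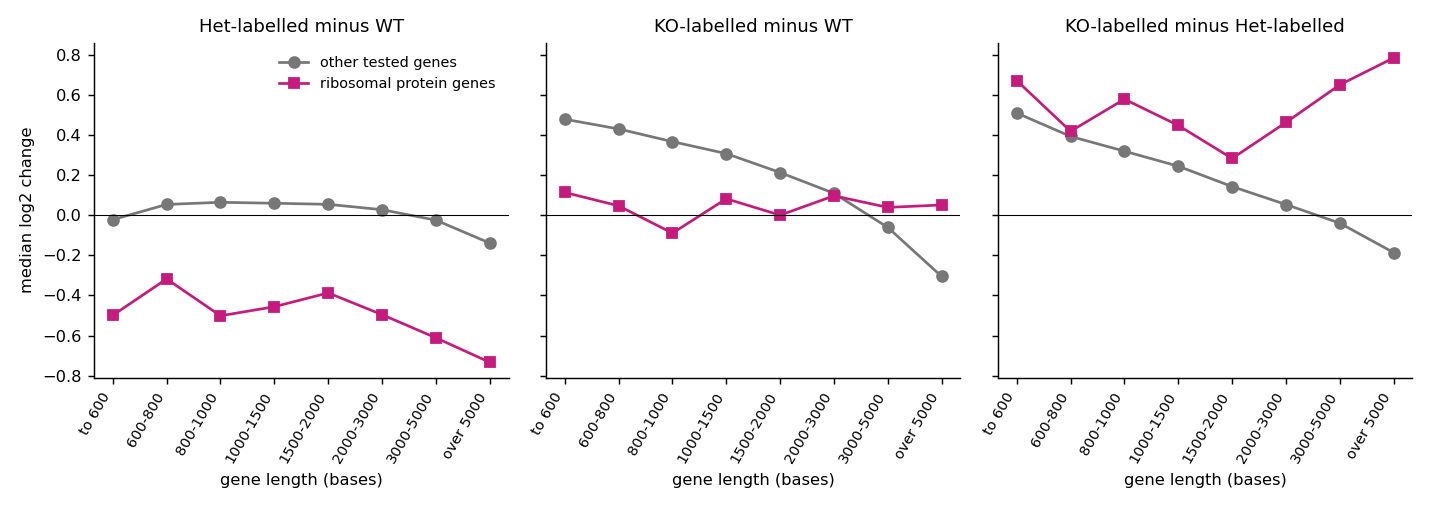
Median log2 change by gene length class (bases) for ribosomal protein genes (squares) and all other tested genes (circles) in 3 comparisons. In SmoHet against SmoWT the members lie below the other genes at every length; in SmoKO against SmoWT other genes fall from 0.48 to -0.31 with length while members stay near 0. The 2 classes above 3000 bases hold 1 member each.

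In SmoKO against SmoWT, the comparison of cells with 2 conditional alleles and none, ribosomal protein genes had a median close to that of all genes before length was taken into account. The median log2 change of members was 0.07, against 0.03 over all genes, and 4 members rose and 2 fell, when 11.6% of all genes rose and 11.4% fell. The SmoKO libraries were both above both SmoWT libraries in 20 members (32.2% of all genes) and both below in 12 (29.8% of all genes). Without SmoKO replicate 1 only 2 members were called, and the median ran from -0.04 to 0.18 as single libraries were left out, so its sign was not settled. The median member nevertheless stood below genes of its size. Once the trend over length was removed from each library, the median became -0.33, with 38 members lower and 1, Rpl7l1, higher; by this rule 7.98% of all genes were lower and 7.7% higher.

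The 4 members that rose in SmoKO were Rpl30, Rpl7l1, Rps29 and Rps27l. Rps29, one of the shortest members at 390 bases, was at 833 and 723 CPM in SmoKO and at 486 and 538 CPM in SmoWT, with 388 and 402 CPM in SmoHet and 525 and 592 CPM in SmoM2. SmoKO stood above all other libraries for Rps29, by a log2 change of 0.60 (SE 0.13, adjusted p = 0.00804); the change was 0.08 with the length trend removed, and the edgeR adjusted p was 0.065 without SmoKO replicate 1. Rpl30 was at 460.3 and 349 CPM in SmoKO and at 210.1 and 307 CPM in SmoWT, a log2 change of 0.65 (SE 0.18, adjusted p = 0.0254). It lost its call with the length trend removed (0.20) and without SmoKO replicate 1 (0.43) or SmoWT replicate 1 (0.39). Rps27l, a paralog of Rps27 known as a target of p53, had a log2 change of 0.54 (SE 0.15, adjusted p = 0.0223), which was 0.09 with the length trend removed. The Rps27l call was also lost without SmoKO replicate 1 (edgeR adjusted p = 0.12), SmoWT replicate 1 (0.11) or SmoWT replicate 2 (0.059).

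Rpl7l1 was the member that rose in SmoKO with and without the length trend. It is a longer relative of Rpl7 (2606 against 933 bases) that acts in the assembly of the large subunit. Its level was 135 and 147 CPM in SmoKO, 111 and 111 CPM in SmoHet, 91.4 and 91.2 CPM in SmoWT and 111 and 96.3 CPM in SmoM2. Both SmoKO libraries were above the other 6, and the log2 change against SmoWT was 0.63 (SE 0.12, adjusted p = 0.00513), or 0.54 with the length trend removed. Rpl7 itself was not called in SmoKO against SmoWT (-0.10). It fell in SmoHet against SmoWT, where Rpl7l1 was not called. Rpl7 was at 693 and 694 CPM in SmoHet, at 1113 and 1171 CPM in SmoWT and at 1093 and 1037 CPM in SmoKO.

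Rpl7a and Rps3a1 fell in SmoKO. Rpl7a, a large subunit protein near the peptide exit, was at 111 and 117 CPM in SmoKO, 124 and 130.1 CPM in SmoHet, 145 and 206 CPM in SmoWT and 151 and 209 CPM in SmoM2. The groups with a conditional allele lay below the others, and within SmoWT and SmoM2 replicate 2 was the higher. The log2 change of Rpl7a was -0.62 (SE 0.19, adjusted p = 0.033), and the edgeR adjusted p was 0.15 without SmoKO replicate 1, 0.085 without SmoKO replicate 2 and 0.19 without SmoWT replicate 2, when the log2 change was -0.38. Rps3a1 changed by -0.37 (SE 0.12, adjusted p = 0.0463), a call lost without each of the 6 SmoKO, SmoHet and SmoWT libraries (adjusted p from 0.061 to 0.14) and held, at -0.72, with the length trend removed.

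SmoKO and SmoHet, which both carry conditional alleles, were also compared directly. Here 39 of 82 members were higher in SmoKO, and no called member was lower; of all genes tested, 4.33% were higher and 5.1% lower. The median log2 change of members was 0.53 (0.02 over all genes), and 81 of 82 were above 0. Other short genes were higher in SmoKO too. In genes of up to 600 bases the median was 0.51 for other genes and 0.67 for members. In 75 members both SmoKO libraries were above both SmoHet libraries, as in 29.2% of all genes. With the trend over length removed the median was 0.19 and 8 members were higher, when 1.69% of all genes were higher by this rule. The count was 0 without SmoHet replicate 1, 10 without SmoHet replicate 2 and 14 without SmoKO replicate 1, with medians of 0.40 to 0.61 as single libraries were left out. SmoKO and SmoHet also differed in Xist throughout, so genotype and Xist status cannot be told apart here.

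Among called members the 5 largest rises from SmoHet to SmoKO were in Rpl26, Rps29, Rpl35a, Rpl36a and Rps23. Rpl36a, an X-linked member near the tRNA exit site, was at 563 and 489 CPM in SmoKO and at 260.4 and 289.6 CPM in SmoHet, with 406 and 443 CPM in SmoWT and 447 and 491 CPM in SmoM2. SmoHet was lowest and did not overlap any group. Its log2 change from SmoHet to SmoKO was 0.93 (SE 0.13, adjusted p = 0.00583), with an edgeR adjusted p of 0.081 without SmoHet replicate 1. Rps23, which sits at the decoding centre, was at 951 and 848 CPM in SmoKO and at 456 and 520.4 CPM in SmoHet, a log2 change of 0.88 (SE 0.13, adjusted p = 0.00647). Leaving out SmoHet replicate 1 took the call from Rps23 (edgeR adjusted p = 0.089) and from Rps29 (0.078), whose log2 change was 0.98. Rpl26 changed by 1.34 and Rpl35a by 0.96; the Rpl26 call was lost without SmoKO replicate 1 (0.85), SmoHet replicate 1 (1.25) or SmoHet replicate 2 (1.41), and the Rpl35a call without any 1 of the 4 libraries compared (0.74 to 1.14).

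The 4 libraries with a conditional allele were set against the 4 without as a contrast of means. Here 44 members were lower and 2 higher, when 21.5% of all genes were lower and 22% higher, and the median was -0.28 (0.01 over all genes). With the length trend removed 72 members were lower and 1 higher, when 21% of all genes were lower and 20.6% higher, with a median of -0.48. The groups overlapped for most members all the same: in 12 of 82 all 4 libraries with a conditional allele were below the other 4, against 16.6% of all genes. Rps3a1 (-0.85, adjusted p = 2.85e-05), Rpl23a (-0.81, adjusted p = 0.0016), Rps18 (-0.75, adjusted p = 0.00822), Rps27 (-0.61, adjusted p = 0.00029) and Rpl7a (-0.56, adjusted p = 0.0051) fell most by edgeR. The 2 that rose were Rpl7l1 (0.36, adjusted p = 0.00574) and Rpl29 (0.49, adjusted p = 0.0466), whose 6.75 to 15.9 CPM make it one of the lowest members. The Rpl29 call was lost without any of 7 of the 8 libraries, the exception being SmoKO replicate 2, and its change was 0.33 without SmoKO replicate 1.

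In SmoM2 against SmoWT, where active Smo was added, no single ribosomal protein gene passed the test, and most had small log2 changes above 0. The median log2 change was 0.15 (0.00 over all genes), the middle 50% of members lay between 0.11 and 0.18, and 75 of 82 were above 0. By edgeR 0 members were called, as by DESeq2, 2 members, Rpl22l1 and Rpl30, had an unadjusted p under 0.05, and 0.223% of all genes were called in either direction. Rpl22l1, a paralog of Rpl22, was at 86.6 and 99.9 CPM in SmoM2, 71.1 and 77.0 CPM in SmoWT, 78.2 and 79.2 CPM in SmoKO and 50.7 and 49.1 CPM in SmoHet. SmoM2 stood highest and SmoHet lowest with no overlap, but the log2 change of 0.33 in SmoM2 had an adjusted p of 0.497. In 38 of 82 members both SmoM2 libraries were above both SmoWT libraries, against 17.4% of all genes. The libraries of the 2 groups overlapped in their median member, at -0.01 and 0.14 in SmoWT and 0.12 and 0.28 in SmoM2.

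Paralogs were set beside their main genes. In SmoHet against SmoWT Rpl22 changed by -0.50 and Rpl22l1 by -0.57, and both fell. Rps27 fell by 0.90 on the log2 scale, whereas Rps27l changed by -0.17 and did not pass. Rps4x fell by 0.71, and Rps4l, which RefSeq lists as a transcribed pseudogene, changed by 0.03 at 48.6 to 68.2 CPM. Rpl7 fell by 0.72, and Rpl7l1 changed by 0.28 without passing. The difference between the members of a pair was not tested.

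The same values were taken for other short and abundant genes. Short abundant genes were defined as the 280 non-member genes with lengths of 449 to 1799 bases and at least 109.7 CPM, the range of most members. Of these, 253 were on none of the other TOP-type, mitochondrial ribosomal and respiratory chain lists, so the groups overlap in part. In SmoHet against SmoWT the median of the 280 genes was 0.06, with 51 higher (18.2%) and 35 lower (12.5%), against 13.1% and 12.2% of all genes. The medians were 0.01 for 78 mitochondrial ribosomal protein genes (9 higher, 4 lower) and 0.04 for 56 subunits of the respiratory chain (3 higher, 6 lower). In SmoKO against SmoWT the medians of these groups were 0.31, 0.30 and 0.49, against 0.07 for ribosomal proteins. In them 96, 25 and 31 genes rose (34.3%, 32.1% and 55.4%), against 4 ribosomal protein genes and 11.6% of all genes. With the length trend removed the medians of these groups were 0.02, 0.04 and 0.06, against -0.33 for ribosomal proteins. By that rule 20, 11 and 3 genes were higher and 30, 1 and 2 lower, when 7.7% of all genes were higher and 7.98% lower. In SmoM2 against SmoWT the medians of these groups were 0.06, -0.01 and 0.03. In SmoKO against SmoHet they were 0.26, 0.32 and 0.49, against 0.53 for ribosomal proteins. There 51, 10 and 22 genes were higher (18.2%, 12.8% and 39.3%), against 47.6% of ribosomal protein genes and 4.33% of all genes. In that comparison 6, 0 and 0 genes were lower. With the length trend removed these medians were 0.01, 0.06 and 0.09, against 0.19 for ribosomal proteins.

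Other mRNAs of the TOP type were also lower in SmoHet for the most part. Of 24 tested translation factors and related genes, 12 fell and 1, Eef1d, rose in SmoHet, with a median of -0.35. These are 50% and 4.17% of the group, where 12.2% of all genes fell and 13.1% rose. The largest falls were in Nap1l1, a histone chaperone (-0.88, edgeR adjusted p = 0.00125), Eif3e, a subunit of an initiation factor (-0.72, adjusted p = 0.00209), and Npm1, nucleophosmin (-0.71, adjusted p = 0.00314). Eef1a1, which brings tRNAs to the ribosome, was at 5941 and 5510.1 CPM in SmoHet and at 8822 and 9288 CPM in SmoWT, and fell by 0.66 on the log2 scale. The medians of this group were -0.04 in SmoKO and 0.13 in SmoM2, each against SmoWT. In SmoKO 2 (8.33%) were higher and 4 (16.7%) lower, against 11.6% and 11.4% of all genes. The Eef1d rise (0.43) was lost without any of SmoHet replicate 1, SmoHet replicate 2, SmoWT replicate 1 or either SmoM2 library, at 0.31 to 0.45.

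Genes that build ribosomes were counted apart from the genes of their parts. Of 50 assembly factors, 7 (14%) rose and 1 (2%) fell in SmoHet against SmoWT, with a median of -0.06, where 13.1% of all genes rose and 12.2% fell, so the share that rose was near the background. With the length trend removed 7 (14%) rose and 4 (8%) fell, against 13.9% and 12.6% of all genes. Bysl, a factor of small subunit assembly, rose by 0.64 (edgeR adjusted p = 0.0091) and Rrp9, of the same pathway, by 0.61 (adjusted p = 0.00691), while Ncl, nucleolin, was the 1 that fell (-0.58, adjusted p = 0.0084). All 3 lost their call without SmoHet replicate 1 (0.46, 0.51 and -0.64), and Ncl also without SmoHet replicate 2 (-0.58). In SmoKO against SmoWT 10 (20%) rose and 0 fell, where 11.6% of all genes rose and 11.4% fell. The largest rises were in Nop10 (1.09), Bysl (0.87) and Nop16 (0.76). With the length trend removed 5 (10%) rose in SmoKO, near the 7.7% of all genes. Among 21 genes of the mTOR pathway and TOP control, 2 rose and 2 fell in SmoHet (9.52% each way, under the shares of all genes), which is no result about the pathway. Of single genes, Ddit4, an inhibitor of mTOR induced by stress, rose by 1.01 (adjusted p = 0.00141), Mlst8, an mTOR partner, rose by 0.59, Sesn1, another inhibitor, fell by 1.03 (adjusted p = 0.00176), and Rictor, a subunit of the second mTOR complex, fell by 0.50. The Mlst8 call was lost without SmoHet replicate 1 (0.59), SmoHet replicate 2 (0.55) or SmoWT replicate 2 (0.46). Ddit4 also rose in SmoKO, by 1.02, where Rictor fell by 0.83 and Eif4ebp2, a repressor of initiation, fell by 0.78, the last a call lost without SmoKO replicate 1 (-0.46) or SmoWT replicate 2 (-0.72).

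**Figure D4:**
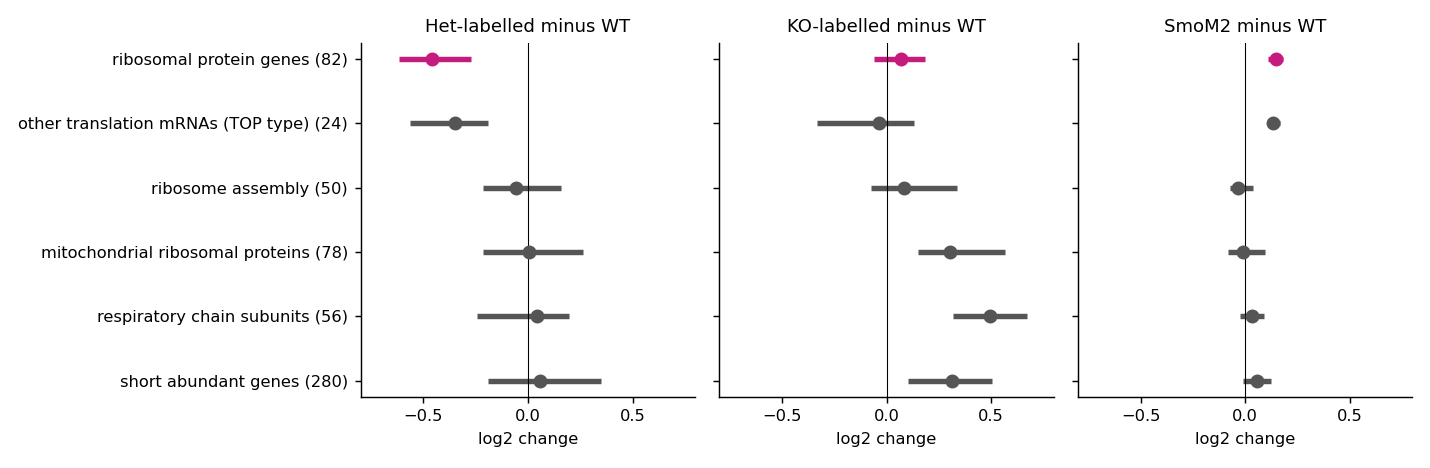
Median (point) and middle 50% (bar) of the log2 change in 6 gene groups for 3 comparisons with SmoWT, with the number of tested genes in brackets. Ribosomal protein genes and other TOP mRNAs lie at -0.46 and -0.35 in SmoHet, while the 4 other groups lie between -0.06 and 0.06. Some short abundant genes also belong to others of these groups.

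The stress genes were higher in SmoHet, where ribosomal protein levels were low: 8 of 12 rose against SmoWT (13.1% of all genes), with a median of 1.27. In SmoKO, where member levels were near those of SmoWT, 6 of the 12 rose (11.6% of all genes) with a median of 0.67. The 2 levels did not go together in every library. SmoM2 replicate 2 had summed stress genes at 6120 CPM, above both SmoWT libraries, and the highest median member, at 0.28. Haemoglobin and other erythroid genes summed to 24.9 and 19.9 CPM in SmoHet, 45.2 and 13.7 CPM in SmoKO and 2.77 to 7.87 CPM in the other 4 libraries, and the erythroid gene Alas2 was under 1 CPM in all. The part of stress, of erythroid RNA or of Xist status in the member levels was not tested.

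Members kept close to each other apart from a few. After the library's median member was taken away, the SD of a gene over the 8 libraries had a median of 0.13 on the log2 scale, and 52 of 82 members were under 0.15. Rpl4 was the tightest, at 0.04, and Rpl24 was among the next, at 0.05. At the other end 5 members left the group by 0.75 or more in some library: Rps2, Rpl17, Rpl35a, Rpl32l and Rpl21.

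Rps2, a core protein of the small subunit, was at 10.3 CPM in SmoWT replicate 1 and at 341 CPM in SmoWT replicate 2. In the other libraries it was at 555 and 392 CPM in SmoKO, 235 and 194 CPM in SmoHet and 332 and 464 CPM in SmoM2. The low library had 110 reads of Rps2, while its median member was at -0.01 against the mean over the 8 libraries. Not every other member was at its usual level there: Rpl30, at 210 CPM, also had its lowest value in this library. The log2 change in SmoHet was 0.29 (SE 0.88, adjusted p = 0.834), whereas without SmoWT replicate 2 it was 4.36 with an adjusted p of 1.2e-05, and without SmoWT replicate 1 it was -0.67 (adjusted p = 0.06), so the 2 SmoWT libraries gave opposite signs for Rps2. Rps2 shares 56% of its 50-base stretches with other genes and overlaps Snhg9.

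Rpl17, of the peptide exit, was at 14.8 CPM in SmoKO replicate 1 and at 1.09 CPM in SmoKO replicate 2, with 1.34 and 2.21 CPM in SmoHet and 4.29 to 6.21 CPM in the other 4 libraries. Its log2 change in SmoHet (-1.58, SE 0.79) had an adjusted p of 0.164, but of 0.018 without SmoKO replicate 1 and 0.015 without SmoKO replicate 2, the 2 libraries that lay farthest apart. Rpl35a, a large subunit protein, was at 42.2 CPM in SmoM2 replicate 2, its lowest value, and at 61.1 to 137 CPM in the other 7 libraries. Rpl21 was at 72.0 CPM in SmoHet replicate 2 and at 31.0 CPM in SmoHet replicate 1, which made it one of 5 members with a log2 change above 0 between SmoWT and SmoHet. These single-library values are specific to 1 gene each and are not seen in the median member.

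**Figure D5:**
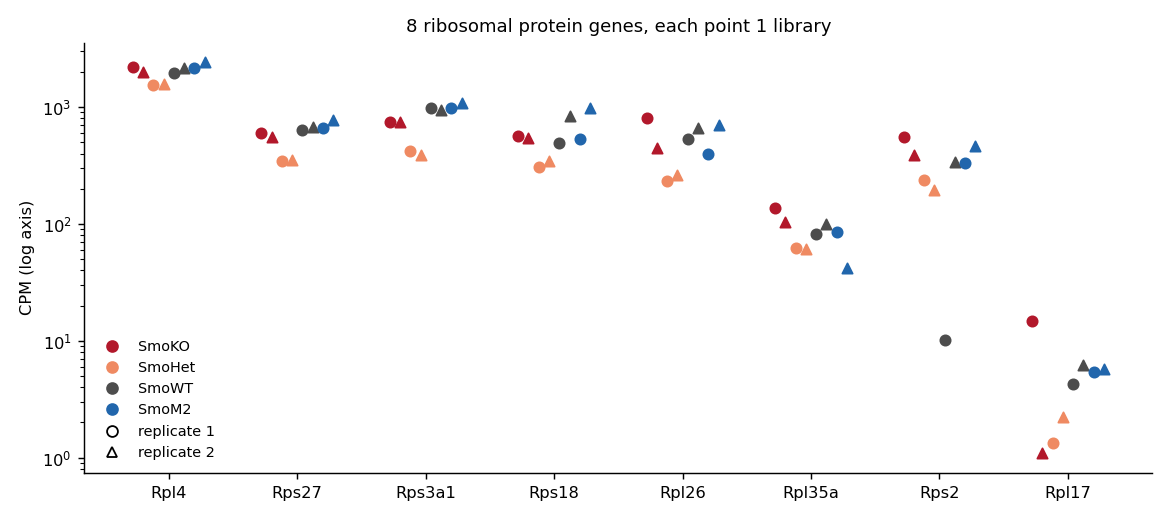
CPM (log axis) of 8 ribosomal protein genes in each library, coloured by group, with circles for replicate 1 and triangles for replicate 2. Rpl4, Rps27 and Rps3a1 show the low SmoHet libraries with close replicates; Rps18 and Rpl26 have replicates far apart, and Rps2 drops to 10.3 CPM in SmoWT replicate 1.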

How the data were processed

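RNA was measured by poly(A) RNA-seq in 8 libraries, 2 per group, grouped by their labels. The deposited table holds, per the file headers, a read count, an RPKM value and a Length per gene symbol for each library, made by the authors. STAR, Subread, featureCounts and mm10 are named in the submitters' processing notes; the annotation, the strand setting and the handling of reads with several matches are not given in the sources used here. The authors' RPKM values imply library totals of which the listed counts are 81.1% to 83.3%. Listed counts per library ran from 4422305 to 10305398. All columns of values were mapped to a sample.

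Counts were fitted over all 8 libraries with edgeR 4.0.16 (R 4.3.3, limma 3.58.1) after edgeR's low-count filter and TMM scaling, with its quasi-likelihood test and Benjamini-Hochberg adjustment over 13459 genes at 0.05. The biological coefficient of variation was 13.5% with 4 residual degrees of freedom. CPM are counts divided by the TMM-scaled library size, per the usual scaling of CPM. In "length trend removed", a smooth trend over log2 Length in each library was an offset. Levels between genes were compared as RPKM. The fit was tested on simulated data. Promoters and coordinates came from RefSeq (GRCm38.p6) and shared 50-base stretches from GENCODE M21 transcripts.

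The members and the gene lists were chosen with earlier results of these data known. Any member could be named; in each comparison up to 5 called rises and 5 falls, the paralogs, Smo and up to 3 called genes of each other list were named by rule. Values of some genes are not reported here. Rps2, Rpl17, Rpl21, Rpl35a, Rpl4 and Eef1a1 were singled out after their values were seen. Alternatives were DESeq2 1.42.0, other scalings, filters, trends, a replicate block and leaving out each library.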

Additional observations from a re-analysis of the deposited data

How the results depend on the processing

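The member median of SmoKO against SmoWT changed sign, from 0.07 to -0.33, with the length trend removed, and the value of Rps2 in SmoHet against SmoWT, which was not called, changed from 0.29 to -0.67 without SmoWT replicate 1. The uncalled values of Rps4l and Rps27l in that comparison, 0.03 and -0.17, also changed sign under some settings, and no called value of a named gene did. Of the values for 64 genes and comparisons named, 7 lost their call with the length trend removed, 11 with GC and length trends removed, 2 with DESeq2, 22 without SmoHet replicate 1, 15 without SmoHet replicate 2, 12 without SmoWT replicate 2 and 10 without SmoKO replicate 1.

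For SmoKO against SmoWT the count of members called, 6 as reported, was 10 with library totals implied by RPKM, 10 with every gene that had a count, 12 with the trend over abundance removed, 39 with the length trend removed (median -0.33) and 44 with GC and length trends removed (median -0.36). For SmoKO against SmoHet it was 8 with the length trend removed (median 0.19), 10 with GC and length (0.21) and 64 with abundance (0.65). For the contrast of libraries with and without a conditional allele it was 73 with either the length (median -0.48) or the GC and length trends removed (-0.51), and 30 of 60 members when those sharing at least 50% of 50-base stretches were left out. That omission gave 31 of 60 for SmoHet against SmoWT. With every gene that had a count, 2 members were called in SmoM2 against SmoWT. The GC correction and the omission of sharing members were chosen after seeing the data. With totals implied by RPKM the shares were 5.43% in SmoKO, 3.70% in SmoHet, 4.98% in SmoWT and 5.34% in SmoM2. The share of all genes called is given above only for the main fit and with the length trend removed. For other settings, and with single libraries left out, that share is not reported here. Those counts therefore cannot tell a change in members from a change in calls over all genes. The causes of these moves were not tested.

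Leaving out single libraries gave 16 to 49 calls for SmoHet against SmoWT, 2 to 7 for SmoKO against SmoWT (median -0.04 to 0.18), 0 to 1 for SmoM2 against SmoWT, 0 to 47 for SmoKO against SmoHet (median 0.40 to 0.61) and 31 to 50 for the contrast by conditional allele. An arm left with 1 library is assumed to vary like the others.

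Replicate numbers are shared between groups, and pairing was not assumed. The correlation of same-numbered deviations was 0.39 between SmoWT and SmoM2 (0.23 over members) and ran from -0.06 to 0.10 between other groups. In both SmoWT and SmoM2 replicate 2 was the library with Xist reads, so replicate number and Xist status cannot be told apart there. With the replicate block the counts were 5, 48, 0, 41 and 46 for SmoKO, SmoHet and SmoM2 against SmoWT, SmoKO against SmoHet and the conditional contrast. Fitting only the libraries compared gives no separate fit for that contrast, which uses all 8. Depth limits Rpl17, Rpl29 and Rpl32l, the members with the fewest reads.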
